A study of Homo sapiens with 6 samples.

Results

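The 9 genes described here encode MHC class I molecules and the machinery that loads them with peptide: the heavy chain genes HLA-B, HLA-C, HLA-E and HLA-F, the light chain gene B2M, the transporter genes TAP1 and TAP2, the tapasin gene TAPBP and the transactivator gene NLRC5. They were taken by gene symbol, and all 9 were found among the 24489 rows of the deposited table. They are not the whole class I family, and other classical heavy chain genes were not analysed here. Class I molecules display peptides of cytosolic proteins to CD8 T cells and are ligands of receptors on natural killer cells. Peptides cut by the proteasome are pumped into the endoplasmic reticulum by the TAP1-TAP2 transporter, tapasin holds an empty class I molecule beside that transporter, and a heavy chain paired with B2M leaves for the cell surface once a peptide has bound. In tumours, loss or low expression of these genes is a known way of becoming less visible to T cells, and glioma cells are commonly described as presenting antigen weakly.

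RNA-seq was available for 3 libraries of LN229 cells transduced to overexpress LACTB, a mitochondrial protein with a serine beta-lactamase-like fold, and for 3 libraries of LN229 cells transduced with vector. LN229 is an established human glioblastoma line, so all libraries come from a single cell line rather than a set of tumours. The labels name neither the promoter nor whether cells were cloned. The comparison asked what LACTB overexpression changes in these glioma cells. Values are normalized read counts, and the log2 differences are LACTB minus vector on the log2(value + 1) scale. Whether each group's libraries are independent cultures is not told by the labels, so the p-values speak of library-to-library spread, possibly only technical.

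LACTB stood at 4268, 4078 and 4203 normalized counts in LACTB libraries 1, 2 and 3, against 458, 515 and 393 in the vector libraries, as the labels have it. Column totals were 34907394 to 35683869 in LACTB libraries and 38049489 to 41384595 in vector libraries, and did not overlap. Of 12939 genes tested, 51.9% passed limma's adjusted p threshold of 0.05, with 24.6% lower and 27.4% higher in LACTB libraries, so a called gene is the usual case in these data. The glioma marker list was present in both groups, with sums of 112333 to 113340 in LACTB libraries and 106099 to 113578 in vector libraries. NES, VIM, CD44 and S100B made up most of these sums, and VIM and CD44 rose, S100B fell and NES did not pass. VIM averaged 35300 in LACTB cells and 25367 in vector cells, and S100B 14499 in LACTB cells and 33778 in vector cells. The astrocyte markers AQP4, SLC1A2 and ALDH1L1 did not exceed 12.6 in any library. Of 13 matched immune cell markers, 12 were below the filter on low values, the common leukocyte gene PTPRC among them, and the exception was the lysosomal gene CD68. The summed immune markers were 1666 to 1780 in LACTB libraries and 1099 to 1233 in vector libraries. CD68 made up most of these sums, with 1673, 1578 and 1592 in LACTB libraries and 1118, 1025 and 1085 in vector libraries. Endothelial and fibroblast markers, of which 7 of 9 were tested, summed to 1773 to 1893 in LACTB libraries and 1272 to 1482 in vector libraries. Without the matrix gene LUM, left out after its values were seen, the other 8 of that list summed to 726 to 850 in LACTB libraries and 1018 to 1252 in vector libraries, the opposite direction. Their part in the results was not tested.

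Among the members, 4 fell and none rose (HLA-B, HLA-C, B2M and TAP2), where 24.6% of all tested genes fell and 27.4% rose. The other 5, HLA-E, HLA-F, TAP1, TAPBP and NLRC5, did not pass limma's adjusted threshold, and at an unadjusted p under 0.05 TAPBP was higher and TAP1 lower. The median difference of the 9 was -0.29, against 0.05 for all tested genes. All 9 members passed the filter on low values. For 7 members the LACTB and vector libraries did not overlap, 6 of them lower and TAPBP higher, where 59.7% of all tested genes had groups that did not overlap in either direction. In bulk libraries, fewer cells expressing a gene and less RNA per cell cannot be told apart.

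**Figure D1:**
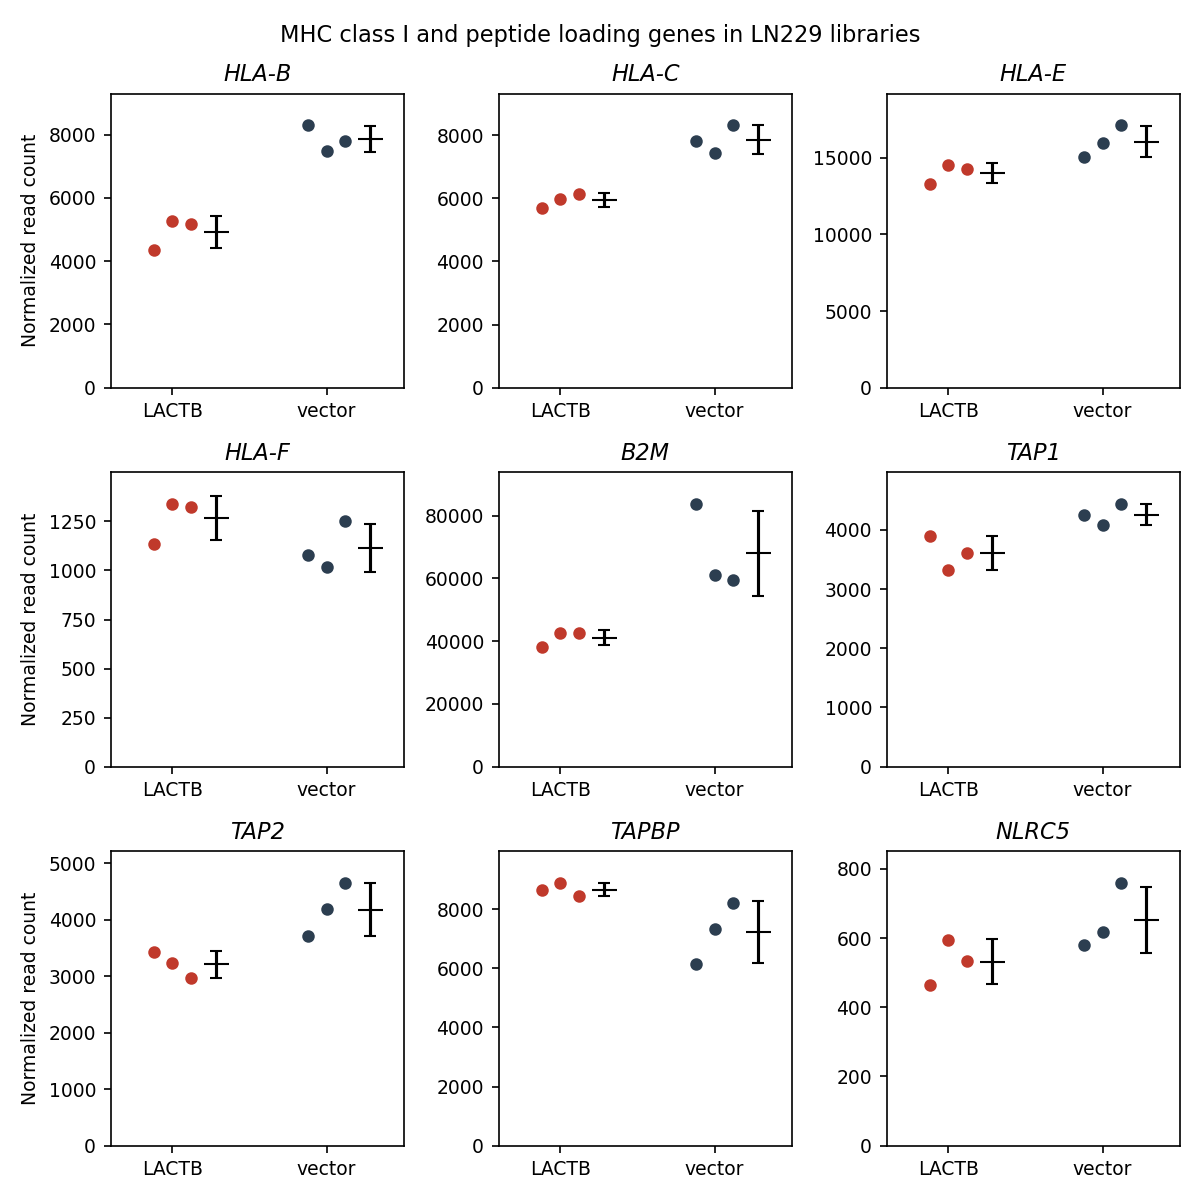
Normalized read counts of each member in every library (points; LACTB libraries left, vector libraries right), with the mean and SD over 3 libraries beside them. B2M, HLA-B, HLA-C and TAP2 sit lower in all 3 LACTB libraries, TAPBP sits higher, and HLA-F and NLRC5 overlap between groups.

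B2M, the light chain that every classical heavy chain needs to fold and reach the surface, had 38226, 42726 and 42491 normalized counts in the LACTB libraries, against 83673, 61054 and 59314 in the vector libraries. All 3 LACTB libraries were lower than any vector library, and vector library 1 was well above the other 2. The means were 41147 ± 2533 in LACTB cells and 68013 ± 13589 in vector cells (SD, n = 3 each), a ratio of 0.605. On the log2 scale B2M differed by -0.71 (SE 0.13, limma adjusted p = 0.000126). Without vector library 1 the difference was -0.55, and it still passed (limma adjusted p = 0.00012). B2M kept its direction and its call under all 17 alternative settings, from -0.28 with quantile normalization to -0.84 with median centring. The gene lies on chromosome 15 (44711487 to 44718877, plus strand, GRCh38), apart from the heavy chain genes.

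HLA-B, a classical heavy chain gene that presents peptides to CD8 T cells, had 4348, 5283 and 5167 normalized counts in the LACTB libraries, against 8304, 7480 and 7800 in the vector libraries. The highest LACTB library lay well under the lowest vector library. The ratio of means was 0.627 and the log2 difference -0.68 (SE 0.11, limma adjusted p = 4.2e-05). HLA-C, the other classical heavy chain gene among the members and a ligand of killer cell receptors, had 5706, 5962 and 6139 in LACTB libraries, against 7826, 7424 and 8319 in vector libraries. The groups were again apart, by a smaller margin, with a ratio of 0.755 and a log2 difference of -0.40 (SE 0.11, limma adjusted p = 0.00347). Both calls depended on the treatment of GC content and transcript length: with that trend removed from every library, HLA-B stood at -0.21 (limma adjusted p = 0.094) and HLA-C at 0.09 (0.33). HLA-C also missed the threshold with equal column totals (-0.21, limma adjusted p = 0.072).

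HLA-E presents peptides from the leader sequences of other class I molecules to the natural killer receptor CD94-NKG2A. It had 13301, 14553 and 14261 normalized counts in LACTB libraries, against 15087, 15964 and 17145 in vector libraries. The libraries did not overlap, but the log2 difference of -0.19 (SE 0.11) did not pass (limma adjusted p = 0.149), and it was 0.03 with quantile normalization and 0.11 with the length and GC trend removed. HLA-F, a nonclassical heavy chain gene, had 1137, 1339 and 1325 in LACTB libraries, against 1081, 1016 and 1250 in vector libraries. These overlapped, with a log2 difference of 0.18 (SE 0.13, limma adjusted p = 0.237). HLA-F passed as higher with equal column totals (0.38, limma adjusted p = 0.024) and with the length and GC trend removed (0.62, limma adjusted p = 0.00027).

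The 4 heavy chain genes lie within 1 region of the short arm of chromosome 6 and resemble each other in sequence, which bears on how reads could be assigned. The coding sequences of HLA-B (chromosome 6, 31269491 to 31357188, minus strand in GENCODE 29) and HLA-C (31268749 to 31272130, minus strand) were 90.1% identical, and their longest shared run without a mismatch was 66 bases. The gene model of HLA-B also runs across that of HLA-C on the same strand. HLA-E (30489467 to 30494205, plus strand) was 85.4% identical to HLA-B and 83.1% to HLA-C. HLA-F (29722775 to 29738528, plus strand) was 67.2% to 70.7% identical to the other 3. Longer shared runs were found between HLA-C and HLA-E (75 bases) and between HLA-E and HLA-F (71 bases). Identity was counted over the longer coding sequence of each pair. That of HLA-F has 1326 bases, against 1089 in HLA-B, 1116 in HLA-C and 1074 in HLA-E. This difference in length lowers the percentages of HLA-F, which therefore do not show it to be less alike over the shared part. These genes are highly polymorphic, the alleles of LN229 were not analysed here, and the way reads with several possible sources were counted is not given in the sources used here. Their values are therefore uncertain as levels of single genes.

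Upstream sequences of the members were searched for short elements through which class I genes are known to be driven, and not every sequence held every element. RefSeq starts (GRCh38.p14) were matched for 7 of the 9 members, and the 250 bases before each start were searched on both strands for ATTGG (the inverted CCAAT of the Y box, bound by NF-Y), TGACG (the core of sites for CREB and ATF factors), GAAA, any 2 bases and GAAA again (the interferon-stimulated response element, ISRE) and GGG, any 2 bases, TT, any base and CC (the NF-kB site, kB site). The letters were chosen with these sequences in view. Of 35116 RefSeq promoters of the same length, 32.0% held ATTGG, 21.2% TGACG, 3.0% the ISRE and 5.1% the kB site. The 3 heavy chain sequences below are shown because HLA-B and HLA-C fell while HLA-F did not pass, with matches in capitals, each read 5' to 3' on the gene's strand (HLA-B chr6:31357180-31357429 minus, HLA-C chr6:31272093-31272342 minus, HLA-F chr6:29723184-29723433 plus).
HLA-B: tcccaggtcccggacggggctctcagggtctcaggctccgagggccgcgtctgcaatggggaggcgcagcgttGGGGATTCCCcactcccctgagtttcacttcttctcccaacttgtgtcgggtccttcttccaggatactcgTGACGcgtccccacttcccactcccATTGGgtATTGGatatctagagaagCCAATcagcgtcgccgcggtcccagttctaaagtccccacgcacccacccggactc
HLA-C: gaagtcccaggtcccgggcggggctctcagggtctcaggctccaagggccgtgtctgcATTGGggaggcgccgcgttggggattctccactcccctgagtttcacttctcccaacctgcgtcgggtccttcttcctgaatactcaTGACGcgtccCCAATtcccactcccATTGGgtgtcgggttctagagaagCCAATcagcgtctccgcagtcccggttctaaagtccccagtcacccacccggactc
HLA-F: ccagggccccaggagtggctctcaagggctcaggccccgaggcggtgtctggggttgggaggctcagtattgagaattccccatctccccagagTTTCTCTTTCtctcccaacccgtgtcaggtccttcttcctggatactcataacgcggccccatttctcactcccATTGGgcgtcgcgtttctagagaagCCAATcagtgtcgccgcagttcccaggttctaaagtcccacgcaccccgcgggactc
HLA-B and HLA-C were 90.4% identical over this stretch, and HLA-F was 80.0% identical to HLA-B and 80.4% to HLA-C, against 40.0% to 47.6% in every pair that holds a gene outside the heavy chains. ATTGG begins 81 bases before the start in HLA-B, 80 in HLA-C and 82 in HLA-F, and its reverse complement begins at 56, 56 and 57 bases in the same genes. HLA-B and HLA-C hold TGACG just upstream of these and HLA-F does not. The kB letters matched in HLA-B and not in HLA-C or HLA-F, although HLA-C reads much alike at that place. The ISRE letters matched in HLA-F alone among the 3 heavy chains shown. Where HLA-F reads TTTCTCTTTC, HLA-B and HLA-C read tttcacttct, narrowly short of the search pattern. The lack of a match there does not mean that no ISRE is present. A match is a description of letters, and neither binding nor the line's own alleles were measured.

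B2M is shown because it was called lower under all 17 alternatives, and its upstream sequence differs from those of the heavy chains (chr15:44711267-44711516, plus strand).
B2M: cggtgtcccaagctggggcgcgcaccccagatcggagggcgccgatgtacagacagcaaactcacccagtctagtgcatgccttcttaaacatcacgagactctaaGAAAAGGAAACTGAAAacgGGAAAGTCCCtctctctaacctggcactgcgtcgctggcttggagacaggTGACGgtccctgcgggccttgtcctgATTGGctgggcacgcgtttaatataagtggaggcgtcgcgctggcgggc
It holds all 4 kinds of match. A pair of overlapping ISRE matches lies between 144 and 129 bases before the start, next to a kB match on the other strand, with TGACG at 75 to 71 and ATTGG at 49 to 45 bases.

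TAP1 and TAP2 encode the subunits of the peptide transporter. TAP1 (chromosome 6, 32845209 to 32853978, minus strand) had 3900, 3324 and 3612 normalized counts in LACTB libraries, against 4243, 4082 and 4436 in vector libraries. The groups did not overlap, and the log2 difference of -0.24 (SE 0.11) did not pass (limma adjusted p = 0.0755). TAP2 (chromosome 6, 32821833 to 32838780, minus strand) had 3433, 3230 and 2966 in LACTB libraries, against 3709, 4183 and 4652 in vector libraries. All LACTB libraries were lower, with a ratio of 0.768 and a log2 difference of -0.38 (SE 0.12, limma adjusted p = 0.0095). The TAP2 call was lost with equal column totals (-0.19, limma adjusted p = 0.18) and without LACTB library 3 (-0.32, limma adjusted p = 0.079). The ratio of TAP1 to TAP2 was 1.14, 1.03 and 1.22 in LACTB libraries and 1.14, 0.976 and 0.954 in vector libraries, so it overlapped. Their coding sequences were 51.2% identical, counted over the longer one (2424 bases in TAP1, 2106 in TAP2). Their longest shared run was 80 bases, so the assignment of reads bears on this pair too. TAP1 overlaps the proteasome gene PSMB9 on the opposite strand, and since no strand setting is given their reads could not be told apart where they overlap. TAP2 overlaps AL669918.1 on the same strand, where reads cannot be told apart under any strand setting.

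TAPBP encodes tapasin, which bridges the transporter and the empty class I molecule and favours tightly bound peptides. It lies on chromosome 6 (33299694 to 33314387, minus strand). It had 8653, 8880 and 8434 normalized counts in LACTB libraries, against 6130, 7329 and 8196 in vector libraries. Every LACTB library was higher than every vector library, by a narrow gap to vector library 3. Its log2 difference of 0.27 (SE 0.12) did not pass (limma adjusted p = 0.0567). It passed with quantile normalization (0.45, limma adjusted p = 0.0023), with equal column totals (0.46, 0.0033), with the length and GC trend removed (0.50, 9.3e-05) and without vector library 3 (0.37, 0.018), and was 0.14 with median centring (0.39). NLRC5, the transactivator that works at class I promoters through RFX, NF-Y and CREB or ATF factors (chromosome 16, 56989485 to 57083531, plus strand), had 465, 595 and 533 in LACTB libraries, against 579, 618 and 759 in vector libraries. The groups overlapped, and NLRC5 differed by -0.29 on the log2 scale (SE 0.16, limma adjusted p = 0.118).

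The promoters of TAP1 and TAPBP are shown beside these values because both hold the interferon element and the kB site, while their transcripts differed in opposite directions without passing the test (TAP1 chr6:32853705-32853954 minus, at the more upstream of its 2 RefSeq starts, and TAPBP chr6:33314079-33314328 minus).
TAP1: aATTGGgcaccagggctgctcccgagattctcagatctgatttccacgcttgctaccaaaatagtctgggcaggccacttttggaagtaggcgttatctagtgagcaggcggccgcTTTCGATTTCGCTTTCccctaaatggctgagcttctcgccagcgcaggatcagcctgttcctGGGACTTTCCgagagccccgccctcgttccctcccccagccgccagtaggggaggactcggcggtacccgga
TAPBP: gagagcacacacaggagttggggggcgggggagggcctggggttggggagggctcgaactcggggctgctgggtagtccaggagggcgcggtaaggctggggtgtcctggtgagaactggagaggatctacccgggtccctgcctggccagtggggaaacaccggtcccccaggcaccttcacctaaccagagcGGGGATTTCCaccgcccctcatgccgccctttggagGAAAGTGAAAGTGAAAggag
Each holds a pair of overlapping ISRE matches and 1 kB match. In TAPBP the ISRE matches lie 20 to 5 bases before the start, and in TAP1 134 to 119 bases before it. TAP1 holds ATTGG only at the far end of the window, and TAPBP holds neither ATTGG nor TGACG. TAP2 has 1 ISRE match and 1 TGACG match. The ISRE letters matched upstream of HLA-F, B2M, TAP1, TAP2 and TAPBP, that is 5 of the 7 members with a sequence. HLA-B and HLA-C, which fell, hold near matches only. Of the 5 that matched, B2M and TAP2 fell and the others did not pass.

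**Figure D2:**
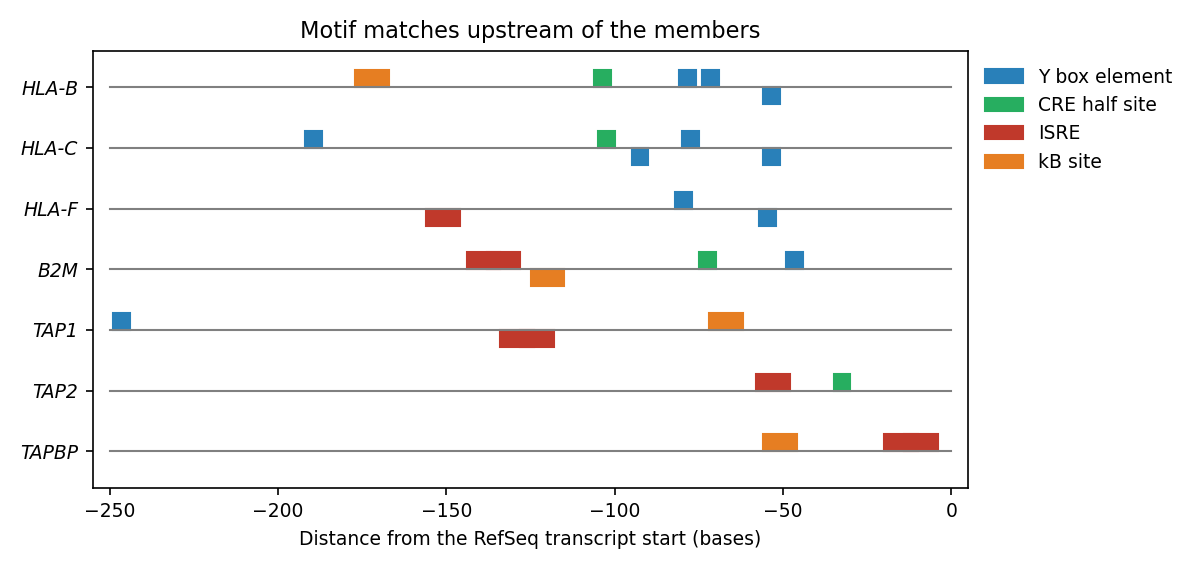
Positions of the 4 kinds of match in the 250 bases before the RefSeq start of 7 members, with boxes above the line for the gene's strand and below it for the other strand. The Y box elements line up in the 3 heavy chain genes, and ISRE matches stand at different distances in HLA-F, B2M, TAP1, TAP2 and TAPBP. Near matches are not drawn.

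Levels of different genes were compared per kilobase of the longest coding transcript. B2M was highest in both groups, at 24130 ± 1486 normalized counts per kilobase in LACTB cells and 39890 ± 7970 in vector cells (SD, n = 3 each). HLA-E followed, at 5397 ± 252 in LACTB cells and 6177 ± 397 in vector cells. In LACTB cells the order went on with HLA-C (3819 ± 140), HLA-B (3189 ± 330), TAPBP (2303 ± 59.3), TAP1 (1221 ± 97.3), HLA-F (775 ± 69.0), TAP2 (565 ± 41.2) and NLRC5 (77.8 ± 9.56), and no neighbours in it overlapped. In vector cells HLA-B (5082 ± 269) and HLA-C (5056 ± 288) overlapped, as did TAP2 (736 ± 82.9) and HLA-F (682 ± 74.0). TAPBP (1920 ± 276) and TAP1 (1437 ± 59.95) stood between these pairs, and NLRC5 (95.6 ± 13.9) was lowest. In mean normalized count, which is not per kilobase, the members ranged widely. B2M exceeded 99.5% of tested genes, HLA-E 97.0%, TAP2 82.6%, HLA-F 58.5% and NLRC5, the lowest, 41.6%.

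Ratios within a library do not depend on the scaling of its column. HLA-B per HLA-C was 0.762, 0.886 and 0.842 in LACTB libraries, against 1.06, 1.01 and 0.938 in vector libraries, so HLA-B was the lower of the pair in all LACTB libraries. HLA-B per HLA-F was 3.82, 3.95 and 3.90 in LACTB libraries, against 7.68, 7.36 and 6.24 in vector libraries. The summed counts of the 4 heavy chain genes per count of B2M were 0.641, 0.635 and 0.633 in LACTB libraries, against 0.386, 0.522 and 0.582 in vector libraries. TAPBP per B2M was 0.226, 0.208 and 0.199 in LACTB libraries, against 0.0733, 0.120 and 0.138 in vector libraries. In each of these 4 ratios the groups did not overlap, and no test was made of them. B2M took 0.107%, 0.122% and 0.121% of the columns in LACTB libraries, against 0.203%, 0.161% and 0.143% in vector libraries. The actin gene ACTB cannot serve as an unmoved reference, since its own difference was 0.28 (limma adjusted p = 0.0545) and its groups did not overlap.

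The differences of all genes followed transcript GC and length, and most members sit at the GC-rich end. Spearman's rho between difference and GC was -0.45 across tested genes, and that between difference and length 0.41 (genes are no replicates of a condition). HLA-C transcripts are 62.7% GC, above 92.5% of tested genes, and the trend at its length and GC was -0.49, close to its measured -0.40. HLA-B is 59.0% GC with a trend of -0.46, and HLA-E 54.8% with a trend of -0.31. TAP1 (57.5%) and TAPBP (57.6%) have similar GC with trends of -0.30 and -0.23, and TAPBP stood above its trend by 0.50. B2M is 40.6% GC, below most tested genes, and the trend at its length and GC was 0.13, on the other side of 0 from its measured -0.71. TAP2 is 49.1% GC with a trend of 0.10, and stood at -0.48 once the trend was removed (limma adjusted p = 0.00051). After removal B2M and TAP2 were the 2 members called lower, and HLA-F and TAPBP the 2 called higher. Why the libraries differ in GC and length was not tested.

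**Figure D3:**
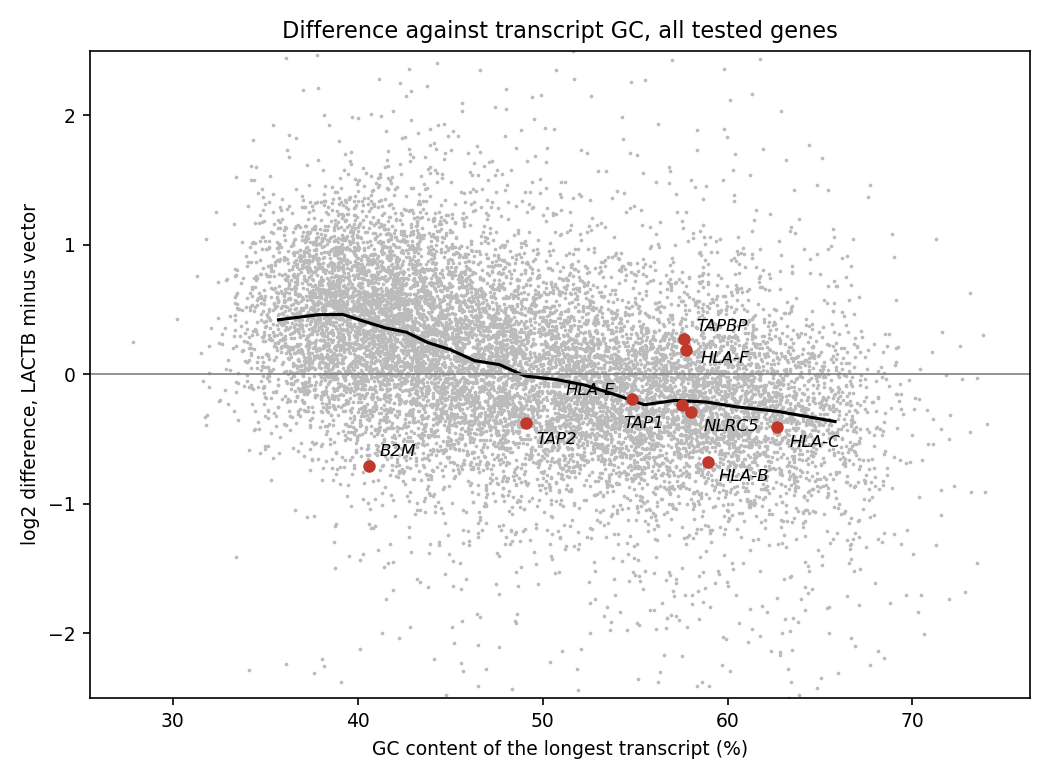
Log2 difference (LACTB minus vector) against the GC content of the longest transcript for tested genes (grey points, those beyond 2.5 in either direction not drawn), with the median in 20 bins of equal gene number (black line) and the 9 members in red. HLA-E, TAP1, NLRC5 and HLA-C lie on or near the line, B2M, TAP2 and HLA-B below it, and TAPBP and HLA-F above it.

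The scaling of the libraries moved the members' differences, and not all of them the same way: with quantile normalization B2M, HLA-B and TAPBP had higher values than as deposited, and NLRC5 and HLA-F lower ones. The median difference of all tested genes was 0.05 as deposited, -0.09 with median centring, 0.01 with quantile normalization and 0.24 with equal column totals. Members called lower numbered 7 with median centring, 5 with quantile normalization and 2 with equal column totals, and members called higher numbered 0, 1 and 2 in the same order. Of all 12939 tested genes, 4148, 3296 and 1913 were called lower in that order, and 2684, 3214 and 4974 higher. Calls over all genes thus moved with the scaling too. The 2 members called lower with equal column totals were B2M (-0.52) and HLA-B (-0.48). Direction was kept by HLA-B, B2M, TAP2 and NLRC5 (lower) and by HLA-F and TAPBP (higher) under all of these scalings and with the length and GC trend removed, and was not kept by HLA-C, HLA-E and TAP1.

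**Figure D4:**
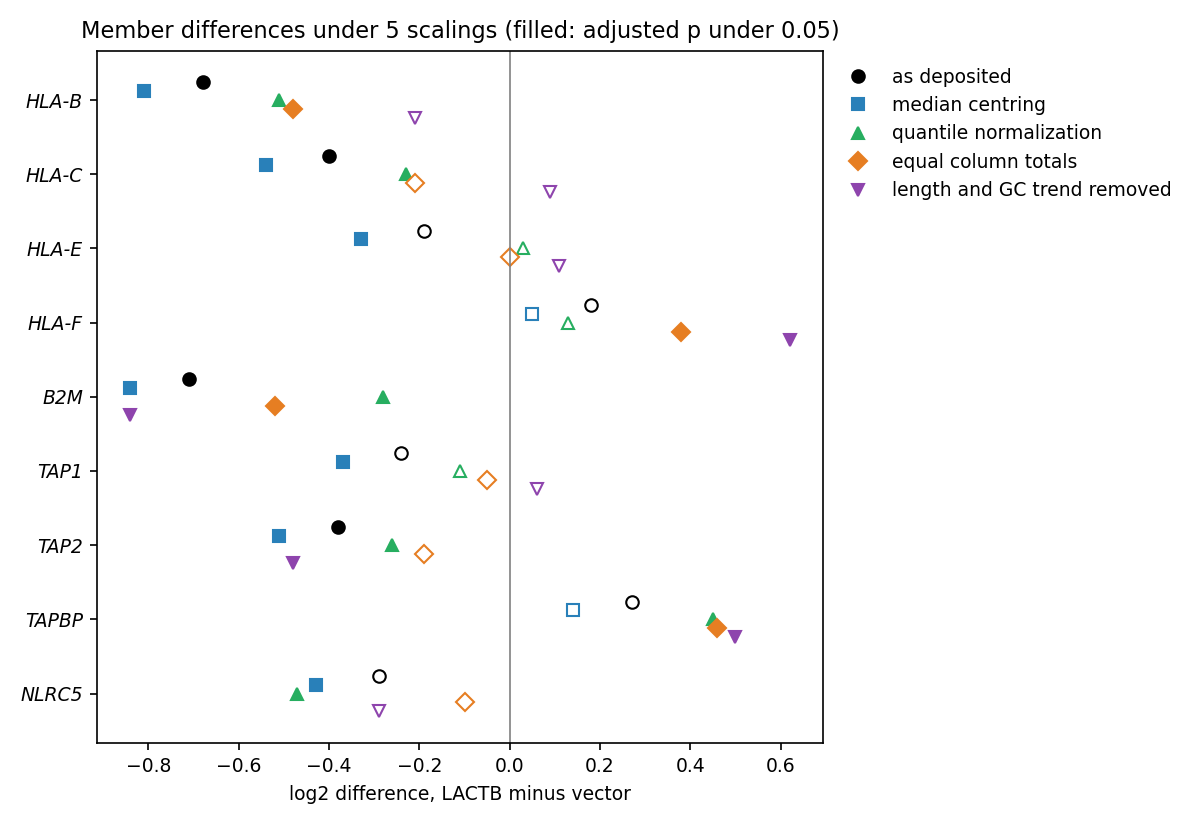
Log2 difference (LACTB minus vector) of each member as deposited and under 4 other treatments of the libraries, with filled symbols where limma's adjusted p was under 0.05. B2M is left of 0 and filled throughout, from -0.28 to -0.84, while HLA-C, HLA-E and TAP1 lie on both sides of 0 or touch it.

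Other genes of the MHC region were compared because 7 of the members lie there. Of 95 tested genes between HLA-F and the end of TAPBP on chromosome 6, members left out, 31 fell and 6 rose, 32.6% and 6.32%, with a median of -0.18. The corresponding shares of all tested genes are the 24.6% and 27.4% given above. With the length and GC trend removed the counts were 16 lower and 29 higher (median 0.07), and equal column totals gave 16 lower and 17 higher (0.02), so the direction in this region changed with the treatment of the libraries. The members on chromosome 6 that fell were HLA-B, HLA-C and TAP2, whereas B2M is encoded elsewhere.

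The immunoproteasome makes peptides suited to class I, and all 5 of its tested genes fell (median -0.44), where 24.6% of all tested genes fell. The catalytic subunit gene PSMB8 averaged 4153 ± 152 in LACTB cells and 6301 ± 789 in vector cells (log2 difference -0.59, limma adjusted p = 0.000209). PSMB9, whose gene lies beside TAP1, averaged 2245 ± 84.5 in LACTB cells and 2817 ± 478 in vector cells (-0.31, limma adjusted p = 0.0412). The activator subunit genes PSME1 and PSME2 fell by 0.54 and 0.44. The 5 stayed negative in median under the other scalings, but only 3 were called with quantile normalization, 2 with equal column totals and 1 with the length and GC trend removed. Among 4 constitutive genes, the catalytic PSMB7 and PSMB5 fell by 0.75 and 0.33, and PSMB6 and PSME3 had differences of -0.02 and -0.06 and did not pass (limma adjusted p = 0.912 and 0.645). The median of these 4 was -0.20, and 0.04 with the length and GC trend removed.

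Among chaperones and peptidases of the endoplasmic reticulum more genes were called higher than lower. Of 12 genes 5 rose, 2 fell and 5 did not pass (median 0.26), where 27.4% of all tested genes rose and 24.6% fell. The aminopeptidases that trim class I peptides both rose, ERAP1 to 1249 ± 70.1 in LACTB cells against 846 ± 90.6 in vector cells (0.57, limma adjusted p = 0.00102), and ERAP2 to 602 ± 29.4 against 307 ± 103 (1.02, limma adjusted p = 0.000171). UGGT1, which monitors glycoprotein folding and acts in peptide editing, rose by 0.95, and CANX, the calnexin that binds new heavy chains, by 0.48. The peptide loading complex partners CALR and PDIA3 had differences of -0.08 and 0.01 (limma adjusted p = 0.599 and 0.936). BCAP31, an export receptor of the endoplasmic reticulum, fell by 0.75 and the tapasin-related TAPBPL by 0.35. The median of this list was positive in every scaling, from 0.12 to 0.51.

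Class I-like genes were mostly called lower as deposited. Of 9 tested, 1 rose and 5 fell (median -0.27), where 27.4% of all tested genes rose and 24.6% fell. Only 2 of the 9 fell with equal column totals (median -0.08), and 2 with the length and GC trend removed (median 0.00). AZGP1, a secreted class I-like glycoprotein, averaged 276 ± 35.8 in LACTB cells and 791 ± 98.0 in vector cells (-1.52, limma adjusted p = 1.31e-07). MICA, a stress ligand of the receptor NKG2D, fell by 0.60, and FCGRT, the heavy chain of the neonatal Fc receptor, by 0.40. HFE, the iron regulator that also pairs with B2M, rose by 0.55.

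Regulators of class I transcription were called in both directions, as were all tested genes (27.4% higher and 24.6% lower). Of 11 RFX, NF-Y, CREB or ATF and coactivator genes 6 rose and 1 fell (median 0.32), with EP300 higher by 1.09, KAT2B by 0.72, CREB1 by 0.66 and RFX5 by 0.32, and RFXANK lower by 0.43. Of 12 NF-kB genes 2 rose and 6 fell (median -0.31, and 0.00 with the length and GC trend removed, when none rose and 2 fell). RELB, NFKB2 and NFKBIE fell by 0.91, 0.68 and 0.55, while REL and CHUK rose by 1.03 and 0.49. Of 15 interferon receptor and JAK-STAT genes 4 rose and 4 fell, close to the shares of all tested genes. Their median was -0.03, against 0.16 under equal column totals. The receptor-bound kinase genes JAK1 and JAK2 rose by 0.78 and 0.84 (limma adjusted p = 8.56e-06 and 0.0101). In the same libraries the receptor chain genes IFNGR2 and IFNAR2 fell by 0.93 and 0.68, and the feedback inhibitor SOCS3 by 1.05. IRF1, an activator of class I and of NLRC5, stood at 1014 ± 99.6 in LACTB cells and 1153 ± 86.5 in vector cells and did not pass (limma adjusted p = 0.233). Of 8 reported repressors of class I 3 rose, the Polycomb genes EZH2 (0.74) and SUZ12 (0.82) and the ubiquitin ligase gene WWP2 (0.57), with a list median of 0.14. In this list 0 genes fell by limma, also at an unadjusted p under 0.05, whereas 1 fell with quantile normalization and 1 with the length and GC trend removed.

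Against 27.4% of all tested genes higher and 24.6% lower, 9 of 31 interferon-induced genes rose and 11 fell (median 0.21). With a filter at 5 CPM 22 of them were tested, 7 rose and 11 fell, and the median was -0.29, so its sign rests on the genes of low level. The membrane protein gene IFITM2 averaged 363 ± 79.5 in LACTB cells and 2092 ± 150 in vector cells (-2.55, limma adjusted p = 2.18e-11), and IFITM1 and IFI35 fell by 1.60 and 0.83. OAS3, an RNA sensor, averaged 5111 ± 218 in LACTB cells and 2880 ± 344 in vector cells (0.83, limma adjusted p = 4.26e-06), and IFI44 and SP100 rose by 0.64 and 0.51. The IFITM genes are close copies of each other, so their values are uncertain. Under median centring the counts were 7 higher and 13 lower, and under equal column totals 12 higher and 8 lower.

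**Figure D5:**
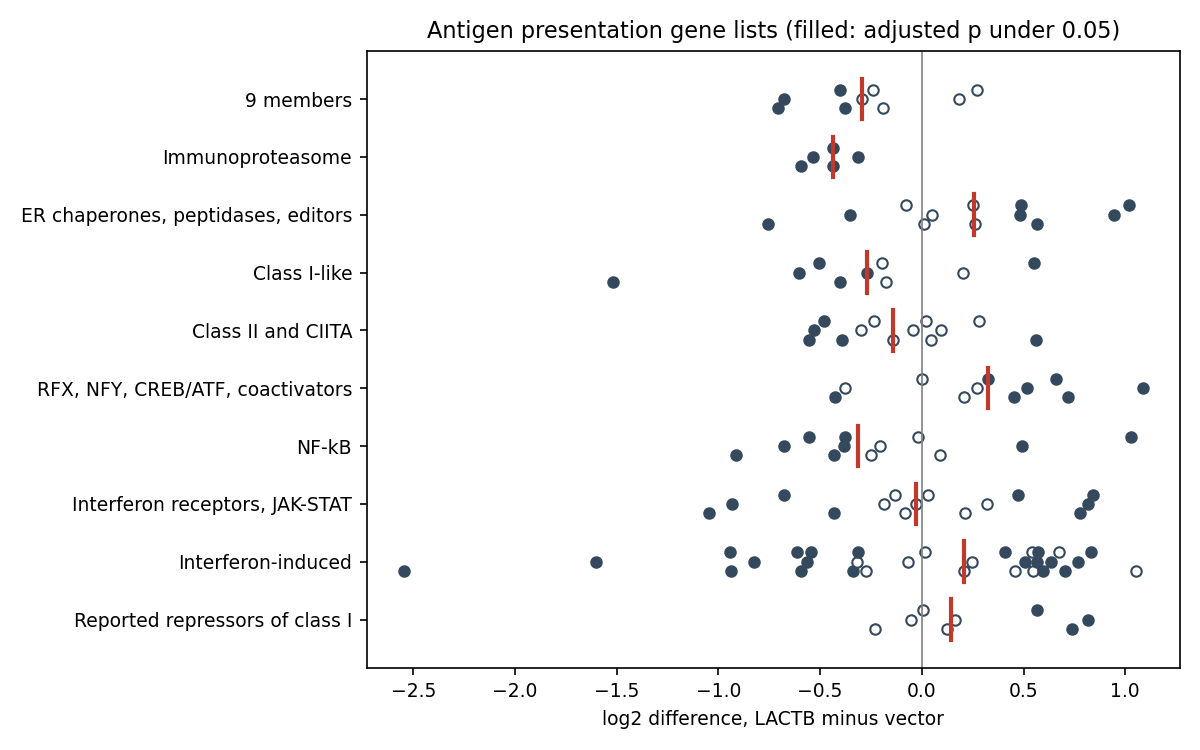
Log2 difference (LACTB minus vector) of the tested genes of 10 antigen presentation lists (points, filled where limma's adjusted p was under 0.05), with the list median as a red bar. All 5 immunoproteasome genes lie left of 0, the interferon-induced genes spread to both sides, and the 9 members have a median of -0.29.

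The 3 genes of these lists whose values over the 6 libraries were most like the median profile of the 4 members that fell were HLA-DPB1, PSME1 and HLA-DRB1. Likeness was the root mean square distance between log2 values centred on each gene's mean, and these distances were 0.077, 0.094 and 0.094 among 118 candidates. Their lower values in LACTB libraries follow from this choice.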

How the data were processed

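Total RNA of 6 LN229 libraries was extracted with Trizol and chloroform and sequenced from NEB libraries, per the labels' protocols. HISAT2 and hg38 are named in the submitters' processing notes. For the counter, annotation, strand setting and normalization, nothing is stated by labels or header. The deposited signal is 1 normalized read count per gene symbol and library, not whole numbers. The best single step per library left 32.8% to 58.5% of values from 0.5 to 20 whole at a tolerance of 0.05, so reads were not recovered, depth is unknown and no count model or counting interval was used.

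Values below 1e-10 were set to 0. For 9 symbols on more than 1 row the higher row was kept. The filter kept genes averaging 1 CPM or more (37.7 normalized counts, from the mean column total), and limma 3.58.1 under R 4.3.3, with its trend and robust settings and group as the sole term, tested them on log2(value + 1), two-sided, Benjamini-Hochberg adjusted over 12939 genes. A run on simulated data checked the fit. The design had foreseen counts or normalized values, and the branch for the latter was used.

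Members and lists were chosen with earlier results of these data known. Of 177 list entries 170 matched a row. Genes named are the members, up to 3 called genes with the smallest adjusted p per list and direction, a fixed set of regulators, and, chosen after their values were seen, ACTB, PSMB6, PSME3, CD74, HLA-DRA and the cell type markers. They also include the 3 list genes nearest to the members that fell. Transcript length and GC came from the longest GENCODE 29 transcript, available for 98.2% of tested genes, and the trend was removed as splines with 5 degrees of freedom each. Promoters are from RefSeq (GRCh38.p14). Alignments used Biopython 1.88 and figures matplotlib 3.10.9 in Python 3.11.15. Alternatives were other scalings, filters, pseudocounts, limma settings, a replicate block, leaving out each library, the length and GC trend, and a threshold of 0.01.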

Additional observations from a re-analysis of the deposited data

How the results depend on the processing

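LACTB and B2M kept their direction and call under all 17 alternatives. The settings that changed a member's call were the scalings, the length and GC trend and the leaving out of 3 of the 6 libraries. No filter, a filter at 5 CPM, the pseudocounts, limma without trend and robust settings, the replicate block and the threshold of 0.01 changed no member's call. With median centring 7 members were lower, HLA-E (-0.33), TAP1 (-0.37) and NLRC5 (-0.43) among them. With quantile normalization 1 member was higher, TAPBP (0.45), HLA-E stood at 0.03 and NLRC5 was called at -0.47. With equal column totals 1913 genes were lower, 2 members were lower and 2 higher, and the member median was -0.10, with HLA-C at -0.21, TAP2 at -0.19, HLA-F at 0.38 and TAPBP at 0.46. With the length and GC trend removed 2 members were lower and 2 higher, and the median was 0.06, with HLA-B at -0.21, HLA-C at 0.09, HLA-E at 0.11, TAP1 at 0.06, HLA-F at 0.62 and TAPBP at 0.50. Of 12710 genes tested with that trend removed, 2774 were lower and 3504 higher. The cause of these changes in the members was not tested. Leaving out each library in turn gave 3 to 7 members lower and 0 to 1 higher, with TAP2 at -0.46 to -0.30, HLA-E at -0.24 to -0.15, TAP1 at -0.29 to -0.18, NLRC5 at -0.38 to -0.18 and TAPBP at 0.16 to 0.37. The 7 lower members arose without vector library 1, when HLA-E, TAP1 and NLRC5 passed. In that setting 3438 of 12934 tested genes were lower and 3881 higher. Genes called higher made up 52.7% of calls as deposited, 39.3% with median centring and 72.2% with equal column totals.

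The replicate numbers gave no pairing: deviations of same-numbered LACTB and vector libraries correlated at 0.02, 0.18 and 0.00. Fitting the replicate block gave 3673 genes higher and 3206 lower, against 3544 and 3177 without it, and HLA-B had a limma adjusted p of 4.1e-07. Depth is unknown, so it is not known what depth limits.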

Other observations

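MHC class II genes, which present peptides of ingested proteins to CD4 T cells and are usually held to antigen-presenting cells, were measured at high levels in this line. All 13 class II entries passed the filter on low values. CD74, the invariant chain, averaged 114281 ± 10373 normalized counts in LACTB cells and 118204 ± 15707 in vector cells (SD, n = 3 each), and HLA-DRA 38306 ± 2839 in LACTB cells and 48339 ± 14539 in vector cells. Neither passed the test (limma adjusted p = 0.79 and 0.102). CIITA, the class II transactivator and a relative of NLRC5, rose to 6430 ± 556 in LACTB cells, against 4359 ± 317 in vector cells (log2 difference 0.56, limma adjusted p = 0.000294). In the same comparison HLA-DRB5, HLA-DRB1 and HLA-DPB1 fell by 0.56, 0.53 and 0.48. HLA-DRB1 and HLA-DRB5 are close copies and their values are uncertain. In all, 1 of the 13 rose and 4 fell (median -0.14), where 27.4% of all tested genes rose and 24.6% fell. Equal column totals gave 2 higher and 3 lower (0.05), and removal of the length and GC trend 3 and 3 (-0.06). The leukocyte gene PTPRC did not exceed 14.6 normalized counts in any library.

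Genes often used as references differed as well. Of 10, 1 rose and 2 fell, where 27.4% of all tested genes rose and 24.6% fell. YWHAZ was higher by 0.34, and PGK1 and HPRT1 were lower by 1.05 and 0.33. These counts moved with the scaling: under median centring 3 fell and YWHAZ lost its call, quantile normalization gave 4 higher and 2 lower, equal column totals 2 higher and 1 lower, and removal of the length and GC trend 2 in each direction. Of 9 tested glioma and astrocyte markers 5 rose and 3 fell, among them SOX2, a neural stem cell factor, higher by 1.24, and S100B, a glial calcium-binding protein, lower by 1.22. Of 7 tested endothelial and fibroblast markers 2 rose and 2 fell, LUM higher by 1.85 and COL1A2, a fibrillar collagen gene, at -2.58 among them.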
